A study of Mus musculus with 12 samples.

Results

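The genes described here were the variable (V) segments of the immunoglobulin loci that were in use in normal mouse bone marrow. They were the rows of the deposited gene table whose names begin with Ighv (heavy chain), Igkv (kappa light chain) or Iglv (lambda light chain) and whose counts summed to at least 10 over the 3 normal libraries. The rule took 177 of 350 V rows, in a table of 34745 genes. Of these, 98 were heavy segments on chromosome 12, 76 were kappa segments on chromosome 6 and 3 were lambda segments on chromosome 16. The annotation lists 162 of them as V genes and 15 as V pseudogenes, of which 12 lie in the heavy locus and 3 in the kappa locus. Because the members were selected on their counts in normal, every value set against normal is a description without a test.

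RNA came from total femoral bone marrow of male ICR mice, an outbred stock, with 3 mice in each of 4 groups and 1 library per mouse. Mice of the normal group were given saline only, without cyclophosphamide. The model, QJSB and leucogen groups, 9 libraries together, shared cyclophosphamide, a DNA-alkylating drug toxic to dividing cells, at 80 mg/kg/day on days 5 to 7 of a 1-week course. The model group was given vehicle beside it, the QJSB group 3 g/kg/day of the herbal granule QJSB and the leucogen group 20 mg/kg/day of leucogen, a drug used against low leucocyte counts. The study asked which genes change in leucopenic marrow and under each drug. Library totals ran from 11172547 to 18545198 counts. Markers of bone marrow were present in normal, where all 8 neutrophil, 6 erythroid, 12 mature B cell and 10 pro-B and pre-B cell markers examined had counts.

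An antibody is built from a heavy and a light chain, and each chain carries a variable part encoded by 1 V segment that a developing B cell joins to shorter D or J segments. Bone marrow is where this joining takes place, and it also houses plasma cells, whose antibody transcripts are very abundant. Counts over V segments therefore report which segments B-lineage cells transcribe, as far as the reads come from such cells and are assigned to the right segment. Whether this held for every segment was not tested here. Counts over the constant genes (Ighm, Igkc, Iglc2) report the chains as a whole. A pseudogene V segment cannot give a full chain but may still be transcribed from the locus. In bulk marrow, fewer B-lineage cells and less V transcript per cell cannot be told apart.

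After cyclophosphamide most V segments had few or no counts, and in leucogen 5 heavy segments of the Ighv1 family held most of those that remained. In model and QJSB the same 5 were at 12.9% and 14.1% of normal. They are Ighv1-62, Ighv1-53, Ighv1-62-3, Ighv1-74 and Ighv1-29, the only members with 30 or more counts over the 3 leucogen libraries, a set chosen after the values were seen. Their reference sequences are shown with Ighv3-6, a segment of another family that was among the most used in normal and was nearly lost. Over the 3 libraries of a group, the 5 held 990 counts in leucogen beside 110 in the other members. They held 205 beside 153 in QJSB and 176 beside 235 in model, so in model they were not the larger part. Each is the annotated GENCODE M21 transcript (GRCm38, minus strand) from the base that aligned with the first base after the leader of Ighv1-53, base 58 of its transcript, to its end. Capitals mark bases that differ from Ighv1-53 or have no partner in it.
Ighv1-62: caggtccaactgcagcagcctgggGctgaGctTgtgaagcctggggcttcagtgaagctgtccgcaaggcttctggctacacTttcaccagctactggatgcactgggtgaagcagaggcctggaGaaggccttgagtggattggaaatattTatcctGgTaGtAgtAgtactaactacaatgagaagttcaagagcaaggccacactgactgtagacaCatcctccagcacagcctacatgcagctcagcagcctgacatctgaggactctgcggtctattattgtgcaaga
Ighv1-53: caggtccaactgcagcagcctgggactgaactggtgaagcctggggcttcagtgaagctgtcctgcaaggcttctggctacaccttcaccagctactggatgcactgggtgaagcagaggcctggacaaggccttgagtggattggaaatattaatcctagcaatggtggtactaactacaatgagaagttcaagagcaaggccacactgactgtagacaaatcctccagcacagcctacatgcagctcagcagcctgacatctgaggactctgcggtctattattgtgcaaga
Ighv1-62-3: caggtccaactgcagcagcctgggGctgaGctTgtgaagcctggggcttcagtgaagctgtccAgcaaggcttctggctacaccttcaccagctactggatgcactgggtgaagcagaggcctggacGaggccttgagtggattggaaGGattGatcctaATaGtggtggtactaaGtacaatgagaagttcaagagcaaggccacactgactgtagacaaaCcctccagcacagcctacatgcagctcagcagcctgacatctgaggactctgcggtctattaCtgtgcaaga
Ighv1-74: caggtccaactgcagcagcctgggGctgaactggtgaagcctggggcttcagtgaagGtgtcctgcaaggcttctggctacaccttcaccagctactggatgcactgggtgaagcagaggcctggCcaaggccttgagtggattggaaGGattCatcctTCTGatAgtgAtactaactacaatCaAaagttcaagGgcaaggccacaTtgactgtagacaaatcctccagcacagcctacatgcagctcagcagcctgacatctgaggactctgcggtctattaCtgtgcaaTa
Ighv1-29: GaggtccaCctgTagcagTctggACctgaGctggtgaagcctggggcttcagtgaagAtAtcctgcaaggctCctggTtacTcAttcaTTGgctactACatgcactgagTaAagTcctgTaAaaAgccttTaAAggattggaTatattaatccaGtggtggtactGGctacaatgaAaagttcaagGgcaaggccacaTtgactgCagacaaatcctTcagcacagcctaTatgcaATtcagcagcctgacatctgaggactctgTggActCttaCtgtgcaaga
Ighv3-6: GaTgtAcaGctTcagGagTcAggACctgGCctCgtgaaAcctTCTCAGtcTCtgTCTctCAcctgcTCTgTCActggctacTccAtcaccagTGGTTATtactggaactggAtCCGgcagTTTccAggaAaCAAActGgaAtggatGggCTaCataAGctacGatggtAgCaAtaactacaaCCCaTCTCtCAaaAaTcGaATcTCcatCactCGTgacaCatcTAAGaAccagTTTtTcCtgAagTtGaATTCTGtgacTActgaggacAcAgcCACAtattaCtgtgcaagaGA

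Ighv1-62 (ENSMUSG00000102765) spans chr12:115371986-115372433 and is annotated as a V pseudogene. In the stretch shown it differs from Ighv1-53 at 12 bases and leaves 1 base of Ighv1-53 without a partner. Read from its first ATG, its transcript held 4 stop codons, the first at codon 56, whereas Ighv1-53, Ighv1-74 and Ighv3-6 held 0. Ighv1-29 (ENSMUSG00000102512, chr12:114812321-114812745) is also annotated as a V pseudogene and has 43 capitals among its 285 bases. Ighv1-53 (ENSMUSG00000093894, chr12:115158403-115158835), Ighv1-62-3 (ENSMUSG00000096767, chr12:115460999-115461485) and Ighv1-74 (ENSMUSG00000094124, chr12:115802648-115803080) are V genes. Over whole transcripts, Ighv1-62 was 96.6% identical to Ighv1-53, 94.6% to Ighv1-62-3, 92.9% to Ighv1-74, 82.5% to Ighv1-29 and 61.3% to Ighv3-6. No other annotated gene overlapped any of the 5.

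V segments resemble each other, so the way reads were divided between them limits what a single count means. Of the 301 windows of 50 bases in the Ighv1-62 transcript, 163 (54.2%) also occur in the transcript of another annotated gene, 109 of them in Ighv1-55 and 58 in Ighv1-53. The shares were 69.4% for Ighv1-62-3, 57.6% for Ighv1-53, 36.4% for Ighv1-74 and 12.6% for Ighv1-29, and the median over the 177 members was 20.9%. Another 7 heavy members shared at least as large a part of their windows as Ighv1-62, and together they had 386 counts in normal and 4 in leucogen. That count leaves out Ighv1-62-3 and Ighv1-53, which share more than Ighv1-62 and are among the 5. Just below it, Ighv1-50, with 52.2% of its windows shared and 41 of those of Ighv1-62 found in it, had 14 counts in normal and 8 in leucogen, and Ighv1-69, with 42.0% shared, had 90 and 8. How far reads were exchanged between these segments was not tested. The program that assigned reads to genes is not given in the sources used here, and the reference sequences are not those of ICR mice, so the 5 are best read as counts assigned to these segments.

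In normal marrow the counts of the members were spread over many segments. The 3 libraries held 6239, 5826 and 5249 V counts, or 452, 399.5 and 362 CPM (counts scaled to a common library size with edgeR's TMM factors). They had counts in 168, 165 and 171 of the 177 members, which was largely set by the rule, since it used these libraries. Over all 350 V rows, the mean number with a count in a normal library was 207. Of the 173 rows under the minimum, 104 had no count in any normal library. Heavy segments took 59.3%, 56.7% and 55.7% of V counts. The inverse Simpson number, which gives how many equally used segments would produce the same concentration, was 34.0 ± 7.14 (SD, n = 3) for heavy segments and between 28.3 and 32.5 for light segments.

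The most used heavy segments in normal were Ighv1-62 (19.1 ± 7.96 CPM, SD, n = 3), Ighv7-3 (15.3 ± 5.29), Ighv3-6 (13.9 ± 1.24), Ighv6-3 (9.95 ± 1.55) and the pseudogene Ighv1-14 (9.60 ± 3.85). Among kappa segments Igkv10-96 led with 11.5 ± 0.463 CPM, followed by Igkv9-124 with 7.96 ± 0.887, Igkv6-13 with 7.94 ± 3.46, Igkv1-110 with 6.04 ± 1.40 and Igkv16-104 with 5.36 ± 1.75. The 3 lambda segments, Iglv3, Iglv1 and Iglv2, stood at 13.5 ± 0.691, 11.5 ± 0.355 and 6.82 ± 4.18 CPM. Iglv1 and Iglv2 are 97.1% identical, so their split is uncertain. Next to each other in these orders, Ighv3-6 and Ighv6-3, Igkv10-96 and Igkv9-124, and Iglv3 and Iglv1 had ranges over the 3 mice that did not overlap, and all other neighbours overlapped.

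Mice of the normal group differed in which segments they used. Among the 32 members with at least 150 counts in normal, the coefficient of variation over the 3 libraries ran from 3.09% for Iglv1 to 61.3% for Iglv2, with a median of 21.3%. Iglv2 had 160, 74 and 55 counts, while Iglv1 had 154, 173 and 167. Another 10 members had all their normal counts in 1 library, 7 of them in normal 3 and all 7 in the heavy locus. Ighv4-1 had 0, 0 and 39 counts, Ighv1-54 had 0, 0 and 31, and Ighv1-72, a near copy of Ighv1-62-3, had 0, 0 and 17. After cyclophosphamide, 3 of these 7 (Ighv1-54, Ighv1-33 and Ighv9-1) had counts again, 1 or 2 each, and all of them in QJSB 1. These members were picked out after their values were seen.

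After cyclophosphamide the summed level of V segments was a small part of that in normal. The 3 model libraries held 220, 143 and 48 V counts, the QJSB libraries 94, 172 and 92, and the leucogen libraries 346, 385 and 369. In CPM, the members summed to 404.4 ± 45.2 in normal, 8.53 ± 5.15 in model, 6.87 ± 2.69 in QJSB and 30.3 ± 4.46 in leucogen (SD, n = 3 each). Relative to normal this was 2.11% in model, 1.70% in QJSB and 7.48% in leucogen, and no cyclophosphamide library came near a normal one. Over all 16592 genes with at least 10 counts in normal, the median level was 97.9%, 96.6% and 95.1% of normal in the same 3 groups.

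**Figure D1:**
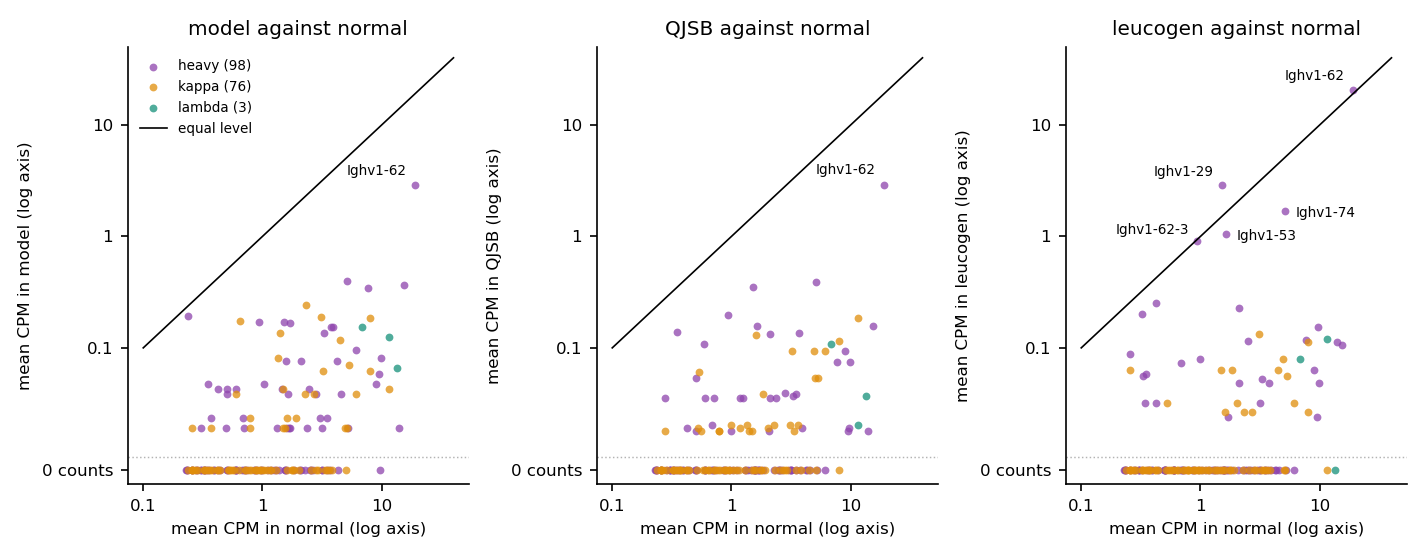
Each point is 1 of the 177 V segments, with its mean CPM over the 3 normal libraries on the x axis and over the 3 libraries of model, QJSB or leucogen on the y axis (both log axes); points under the dotted line had no count in that group. The line marks equal levels, which Ighv1-62 at 108% and Ighv1-62-3 at 97.9% of normal lie close to in leucogen, while 104 members in model, 116 in QJSB and 132 in leucogen had no count.

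Segment by segment, the loss was broad. Of the 177 members, 149 were lower in all 9 cyclophosphamide libraries than in each of the 3 normal libraries, 78 heavy, 68 kappa and 3 lambda. Among all genes with at least 10 counts in normal, 2988, or 18.0%, showed the same separation. The rule used the normal libraries, so nothing is read from the comparison of these shares. There were 104 members with no count in any model library, 116 in QJSB and 132 in leucogen, and 72 (35 heavy and 37 kappa) had none in any of the 9. Just inside the rule, Ighv1-62-2, Ighv12-3 and Ighv3-5 had 10 counts in normal, and just outside it Ighv1-52 and Ighv6-5 had 9 and Ighv1-22 had 8.

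The leading segments of normal marrow were among those nearly lost. Ighv3-6 had 210, 199 and 185 counts in normal, 1, 0 and 0 in model, 1, 0 and 0 in QJSB and 0, 2 and 2 in leucogen. Ighv7-3 kept somewhat more in model, with 6, 5 and 7 counts against 283, 226 and 144 in normal. It had 2, 0 and 6 in QJSB and 4, 0 and 0 in leucogen. Ighv1-14, although a pseudogene of the Ighv1 family like Ighv1-62, had 187, 137 and 85 counts in normal and 0 in every model library.

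Light segments were also low after cyclophosphamide. Kappa members summed to 1.26% of normal in model, 0.854% in QJSB and 0.596% in leucogen, and lambda members to 1.08%, 0.521% and 0.629%. Igkv10-96 had 152, 169 and 173 counts in normal and 0 in each leucogen library. Iglv3 had 182, 209 and 190 counts in normal, 1, 2 and 0 in model, 1, 1 and 0 in QJSB and 0 in all 3 leucogen libraries, which puts leucogen at least 166-fold lower when set against 3 counts over the group. The light member with most counts differed between libraries and never exceeded 9 counts. It was Igkv14-130, Igkv1-88 and Iglv2 in the model libraries, Igkv10-96, Igkv6-15 and Igkv9-124 in QJSB, and Igkv1-88, Iglv2 and Iglv1 in leucogen, with ties in model 3 (Igkv1-122), QJSB 3 (Igkv8-16) and leucogen 2 (Igkv9-124).

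The few light counts were spread over fewer segments than the same number of counts drawn from a normal library would touch. In model 1, 45 light counts fell in 18 segments, where 25.8 to 27.3 would be expected from the composition of the normal libraries. In QJSB 1, 44 counts fell in 17 segments against 25.5 to 26.9 expected. Leucogen 1 had 12 counts in 6 segments against 10.1 to 10.3. QJSB 2 was the exception, with 9 counts in 8 segments against 7.88 to 8.02. Heavy segments without the 5 Ighv1 segments were also fewer than expected, in every cyclophosphamide library. They numbered 28 against 34.6 to 39.4 in model 1 and 7 against 12.9 to 13.6 in QJSB 3. The expectation treats counts as separate molecules, and read pairs from 1 molecule or cell would lower the number of segments. It was also drawn from the normal libraries that the rule used, over members kept for their counts there, which can raise it. In model 1, another 9 counts fell in 6 V rows under the minimum, which are left out. The comparison is therefore a description, and nothing is read from the shortfall.

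Heavy segments as a class looked better kept than light ones. They summed to 2.77% of normal in model, 2.37% in QJSB and 12.6% in leucogen. Their share of V counts was 79.5%, 73.4% and 62.5% in the model libraries, 53.2%, 94.8% and 78.3% in QJSB and 96.5%, 98.4% and 95.1% in leucogen, against 55.7% to 59.3% in normal. Most of the heavy counts in leucogen lay in the 5 Ighv1 segments. Without them the heavy members summed to 1.35%, 0.738% and 1.01% of normal, against 1.22%, 0.792% and 0.602% for light members. The heavy share was then 51.9% to 60.9% in model, 44.4% to 72.7% in QJSB and 60%, 82.4% and 60.9% in the leucogen libraries, which were all above the 53.3% to 55.5% of normal counted the same way, with 95% exact binomial intervals as wide as 40.6% to 77.3% for leucogen 1, which cover counting error only.

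**Figure D2:**
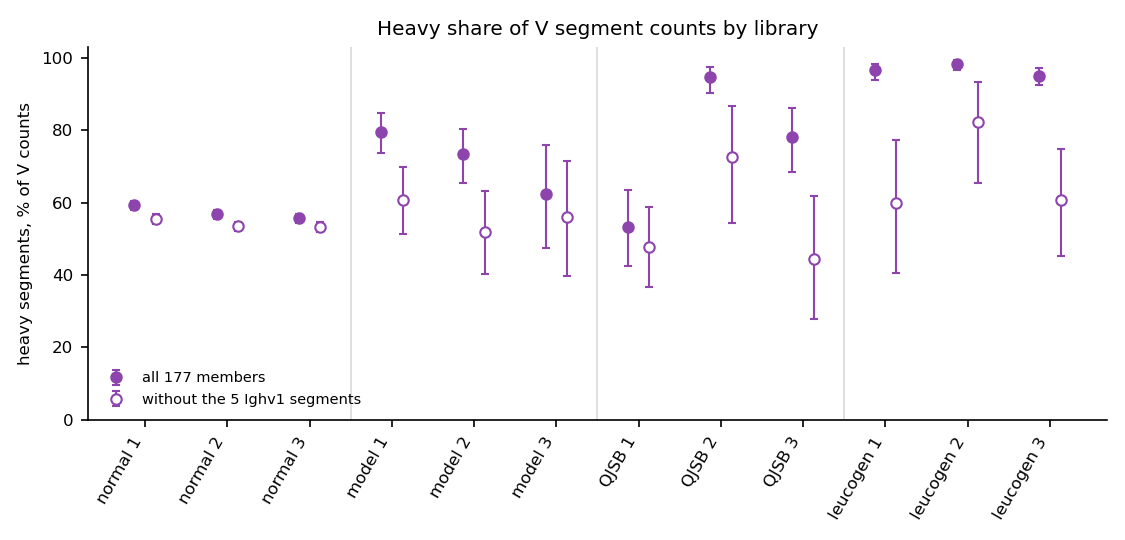
The y axis gives the heavy segments' percent of V counts in each of the 12 libraries, with 95% exact binomial intervals as bars, for all 177 members (filled) and without Ighv1-29, Ighv1-53, Ighv1-62, Ighv1-62-3 and Ighv1-74 (open). Filled points of leucogen lie between 95.1% and 98.4%, and the intervals of the open points of 8 of the 9 cyclophosphamide libraries reach the open points of normal at 53.3% to 55.5%, the exception being leucogen 2.

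**Figure D3:**
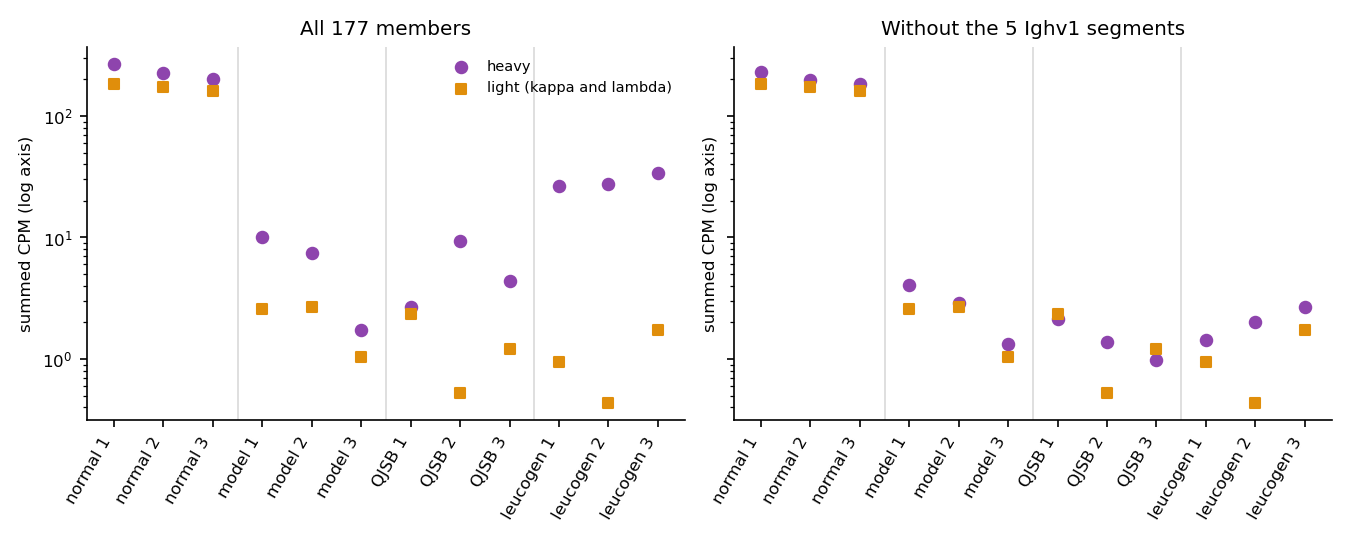
Summed CPM of heavy (circles) and light (squares) V segments in each library on a log axis, for all members on the left and without the 5 Ighv1 segments on the right. Heavy sums of leucogen at 26.5 to 33.7 CPM stand above those of model and QJSB on the left and drop to 1.43 to 2.69 CPM on the right.

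As a sum, the rest of the Ighv1 family was far lower than the 5, which were set apart for their counts in leucogen. The other 43 Ighv1 members summed to 1.10% of normal in model, 0.750% in QJSB and 1.58% in leucogen, and the 50 members of other heavy families to 1.51%, 0.731% and 0.659%, so that in leucogen the Ighv1 value was the higher. None of the other 172 members had more than 9 counts over the leucogen libraries, a number reached by Ighv8-4. By contrast, the 5 segments together had 1210 counts in normal, 176 in model, 205 in QJSB and 990 in leucogen, which is 12.9%, 14.1% and 95.8% of normal. By percent of normal the 5 were not alone in leucogen, where 9 members (8 heavy and 1 kappa) had at least 20%. Ighv1-50, outside the 5, was at 63.0% there, on 14 counts in normal and 8 in leucogen. Among V pseudogenes, the 15 members summed to 63.3% of normal in leucogen, but the 13 without Ighv1-62 and Ighv1-29 to 1.06%.

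Ighv1-62 had the highest mean of all V segments in normal and the most counts of any in each cyclophosphamide group. It had 375, 277 and 163 counts in normal, 85, 49 and 5 in model, 6, 105 and 38 in QJSB and 233, 264 and 252 in leucogen. The leucogen libraries overlapped the normal ones, whereas the model and QJSB libraries all lay below both, with a wide spread inside each group. Its mean was 2.89 ± 2.36 CPM in model, 2.90 ± 2.92 in QJSB and 20.6 ± 3.11 in leucogen, against 19.1 ± 7.96 in normal (SD, n = 3). It was the top heavy segment in 7 of the 9 cyclophosphamide libraries, tied with Ighv1-78 at 6 counts in QJSB 1 and behind Ighv7-3, with 7 counts, in model 3. In leucogen it alone held 69.7% to 71.8% of heavy counts, against 6.33% to 10.1% for the top heavy segment of the normal libraries.

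The other 4 followed with lower counts. Ighv1-29 had 16, 28 and 21 counts in normal, 2, 4 and 2 in model, 1, 9 and 8 in QJSB and 41, 33 and 32 in leucogen, so that every leucogen library exceeded every normal one. Ighv1-74 had 95, 77 and 48 counts in normal, 12, 7 and 0 in model, 3, 12 and 5 in QJSB and 22, 22 and 18 in leucogen, between normal and the other groups without overlap. Ighv1-53 had 28, 23 and 19 counts in normal, 2, 0 and 0 in model, 0, 6 and 2 in QJSB and 10, 13 and 15 in leucogen. Ighv1-62-3 had 15, 11 and 14 counts in normal, 4, 4 and 0 in model, 0, 7 and 3 in QJSB and 10, 19 and 6 in leucogen. Within QJSB, library 2 was the highest for all 5 and library 1 the lowest, and within model, library 3 had 5 counts of Ighv1-62 and none of Ighv1-53, Ighv1-62-3 or Ighv1-74.

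**Figure D4:**
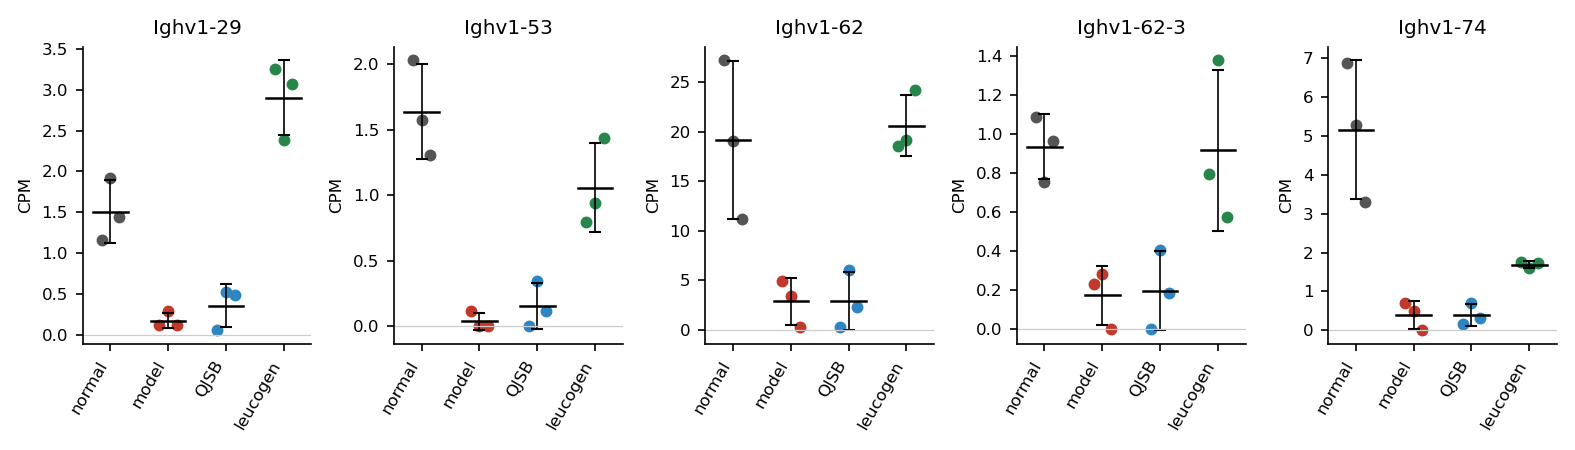
CPM of the 5 Ighv1 segments in each library by group (linear axes, a separate scale for each segment), with the mean as a line and the SD over 3 libraries as the bar. Leucogen points lie above all model and QJSB points for each segment, and Ighv1-29 is the one segment whose leucogen mean of 2.90 CPM exceeds its normal mean of 1.51 CPM with no overlap.

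The contrasts between the cyclophosphamide groups did not use the normal libraries and were tested with edgeR's quasi-likelihood test on all genes, with Benjamini-Hochberg adjustment over all genes tested. Calls needed a change of more than 1.5-fold in either direction and an adjusted p under 0.05. Most members had too few counts to pass edgeR's filter on low counts, which kept 1 member for QJSB against model and 4 for each contrast with leucogen. The 4 passed through their counts in leucogen, so their number is no evidence about V segments in general.

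QJSB did not differ detectably from model in Ighv1-62 (log2 fold change -0.01 ± 1.08, SE, adjusted p = 0.999), the only member tested. With an error of this size, a difference of several fold in either direction was not detectable, and leaving out single libraries moved the value between -1.15 (without QJSB 2) and 0.62 (without model 1). In the whole contrast, 0 of 14486 genes were called (0.0%) and 446 (3.08%) passed the same fold change at an unadjusted P under 0.05. DESeq2 without a filter tested 97 members, called 0 and gave 1, lower in QJSB, an unadjusted P under 0.05, beside 668 of all 21762 genes past the unadjusted cutoff. Other runs also called 0 members. The unadjusted cutoff was passed by 4 of 97 in edgeR without a filter (4 lower, 624 of 21762 genes). It was passed by 6 of 38 with limma-trend (5 lower, 554 of 15996 genes) and by 8 of 93 with all libraries in one fit (7 lower, 802 of 15310 genes). Over all members the summed level was 8.53 CPM in model and 6.87 in QJSB, with overlapping libraries.

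In leucogen against model, Ighv1-53 was higher by 4.42 ± 0.83 on the log2 scale (SE, adjusted p = 0.00731), Ighv1-29 by 4.06 ± 0.47 (adjusted p = 0.00178) and Ighv1-62 by 2.84 ± 0.75 (adjusted p = 0.0355). Ighv1-74 had a log2 fold change of 2.09 ± 0.73 and an adjusted p of 0.0625. All 4 passed the unadjusted cutoff. The fold change of Ighv1-53 rested on 2 counts in model beside 38 in leucogen, a ratio of 25.2 with a 95% exact interval of 6.5 to 215 that covers counting error only, and became 6.86 on the log2 scale without model 1, which held both counts. Among the 14184 genes tested, 3275 (23.1%) were called and 4192 (29.6%) passed the unadjusted cutoff. The call of Ighv1-62 was lost without model 2 (adjusted p = 0.0655) and without leucogen 1, 2 or 3 (adjusted p = 0.0804, 0.0871 and 0.107), and Ighv1-74 passed without model 3 (adjusted p = 0.0461). Without model 1 the log2 fold change of Ighv1-62 was 3.51.

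The members tested in QJSB against leucogen were those with high counts in leucogen, so their shared direction was largely set by the filter. The log2 fold changes were -3.05 ± 0.59 for Ighv1-29 (adjusted p = 0.00773), -2.85 ± 0.79 for Ighv1-62 (adjusted p = 0.0378), -2.73 ± 0.78 for Ighv1-53 (adjusted p = 0.0319) and -2.13 ± 0.52 for Ighv1-74 (adjusted p = 0.0179). Of the 14266 genes tested, 3511 (24.6%) were called and 4367 (30.6%) passed the unadjusted cutoff. With the replicate number as a block, Ighv1-62 lost its call (adjusted p = 0.0528) and the other 3 kept theirs. Ighv1-29 kept its call whichever library was left out, with adjusted p between 0.00242 and 0.0421. Ighv1-53 and Ighv1-62 lost theirs without QJSB 3 (adjusted p = 0.0914 and 0.0947), leucogen 1 (0.0716 and 0.0843), leucogen 2 (0.0763 and 0.0627) or leucogen 3 (0.127 and 0.0959), and Ighv1-74 lost its call without QJSB 3 (0.0588), leucogen 1 (0.0623) or leucogen 3 (0.0701). Without QJSB 2, the highest library of its group, the log2 fold changes of Ighv1-62, Ighv1-53 and Ighv1-74 were -3.99, -3.998 and -2.83, and without QJSB 1, the lowest, the first pair had -2.32 and -2.13. These contrasts share the model or leucogen libraries and are not independent of each other.

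Counts over the constant genes did not follow the 5 segments. Igkc, the kappa constant gene, had 6842, 5873 and 5760 counts in normal and 19, 16 and 34 in leucogen, and Iglc2, a lambda constant gene, had 464, 469 and 445 in normal and 0, 3 and 4 in leucogen. Ighm, which encodes the heavy chain of IgM, had 14649, 15015 and 14848 counts in normal, 2240, 778 and 768 in model, 1421, 595 and 698 in QJSB and 441, 336 and 342 in leucogen. Heavy V counts per 100 Ighm counts were 19.7 to 25.3 in normal, 3.91 to 13.5 in model, 3.52 to 27.4 in QJSB and 75.7 to 113 in leucogen. QJSB 2, the highest of its group, was above every normal library. Without the 5 segments they were 17.9 to 21.7 in normal, 3.00 to 5.27 in model, 2.29 to 4.03 in QJSB and 4.08 to 8.33 in leucogen. The heavy V counts outside the 5 were thus fewer for each Ighm count in every cyclophosphamide library. Kappa V counts per 100 Igkc counts showed no such separation, with 29.9 to 35.1 in normal and 18.8 to 63.2 over the 9 libraries, where Igkc itself had 16 to 101 counts.

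Markers of B-lineage cells ranged widely. Ms4a1, the surface protein CD20 of mature B cells, had 2866, 3775 and 3324 counts in normal, 4, 0 and 0 in model, 10, 0 and 1 in QJSB and 0, 3 and 0 in leucogen. Vpreb1, part of the surrogate light chain of pre-B cells, had 259, 179 and 148 counts in normal and 3, 2 and 4 in leucogen. In model it had 76, 18 and 1. Jchain, which joins IgM and IgA into polymers in plasma cells, had 831, 551 and 524 counts in normal and 17, 7 and 8 in leucogen. Sdc1, the plasma cell surface protein CD138, kept more, with 215, 220 and 210 counts in normal and 39, 44 and 25 in leucogen. Dntt, the polymerase that adds bases at V gene joints, was at 64.1% of normal in model and 6.87% in leucogen, and Cd37 at 57.0% and 85.3%. Xbp1, a transcription factor of secretory cells, was at 335% of normal in model and 238% in leucogen.

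By the marker lists, 2 of the 6 mature B cell markers that were tested were called higher and 1 lower in leucogen than in model, beside 3 lower of 8 plasma cell markers and 1 higher and 2 lower of 7 pro-B and pre-B cell markers. Over all 14184 genes tested, 3275 (23.1%) were called, so these calls of a few markers are a description only. None of the 3 constant genes tested was called. The median log2 fold changes of these lists were -0.82, -0.66, -3.23 and -1.18, against -0.05 over all genes tested. For QJSB against model no marker of any list was called, beside 0 of all 14486 genes tested. The mature B cell markers called higher were Cd37 and Bank1 and the one called lower was Cd79b, part of the B cell receptor complex, while Ms4a1 and Cr2 had at most 3 counts in any leucogen library.

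The summed level of the neutrophil markers was also highest in leucogen, but not in the same proportions as the 5 segments. Single markers differed. Ltf, Ngp, Camp, S100a8 and S100a9 had their highest mean in leucogen. S100a8 (24990 CPM) and S100a9 (13760 CPM) made up most of the mean sum of 51910 CPM in leucogen, so the sum mainly reports these genes. Elane and Mpo were lower there (610 and 1448 CPM) than in model (1190 and 3418 CPM), and Cd177 was highest in QJSB (1608 against 1435 CPM in leucogen). The summed level of the 8 neutrophil markers was 15600 to 18980 CPM in normal, 8514 to 20880 in model, 12590 to 38430 in QJSB and 46340 to 55030 in leucogen. Of the 8 tested, 5 were called higher and 2 lower in leucogen than in model, beside 23.1% of all genes called. Over the 12 libraries and 14837 genes, the gene whose log2 CPM was most like that of Ighv1-62 was Tyrobp, an adaptor protein of myeloid and NK cells (Pearson r = 0.984), followed by Txndc16, B630005N14Rik, Pqlc3 and Erbb2ip (r = 0.967 to 0.948). Ighv1-74, Ighv1-53 and Ighv1-29 ranked 34, 81 and 154 with r of 0.917, 0.902 and 0.876. Among the 8 neutrophil markers r was 0.806 for Camp, 0.621 to 0.627 for Ltf, S100a8 and S100a9, 0.462 for Ngp, 0.054 for Cd177, -0.708 for Elane and -0.729 for Mpo. Among B-lineage markers it was 0.662 for Bank1, 0.641 for Cd37, 0.392 for Ms4a1 and 0.337 for Jchain. The 12 libraries share their groups, so these values describe likeness of pattern and carry no test. The part of neutrophil RNA, or of any other cell type, in the counts of the 5 segments was not tested.

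**Figure D5:**
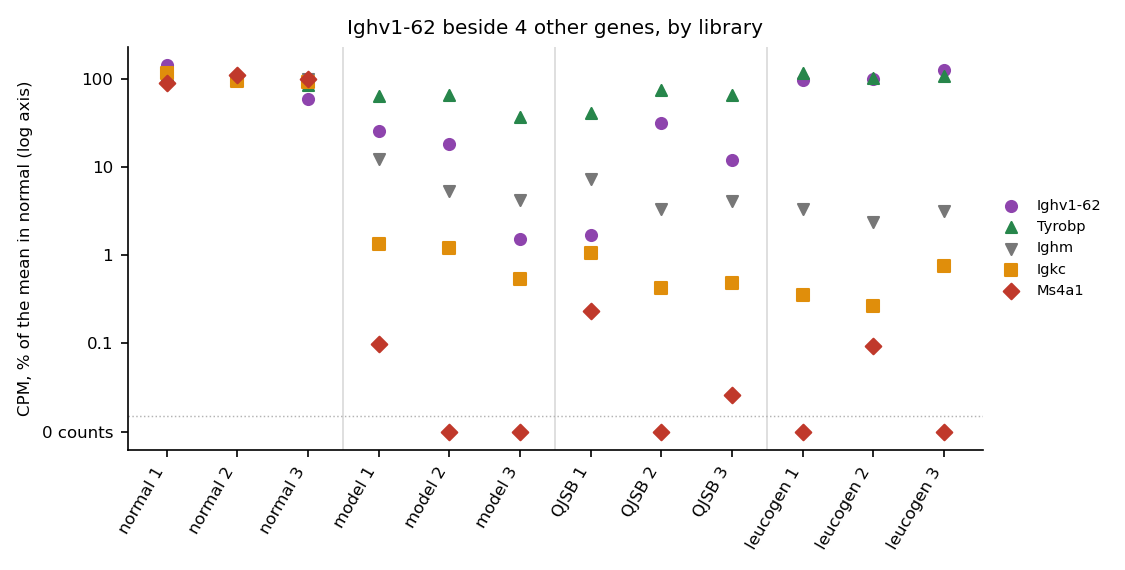
CPM of Ighv1-62, Tyrobp, Ighm, Igkc and Ms4a1 in each library as a percent of the gene's own mean in normal (log axis); points under the dotted line are 0 counts. In leucogen, Ighv1-62 and Tyrobp lie near 100% of normal, while Igkc has 19, 16 and 34 counts and Ms4a1 0, 3 and 0. In every model and QJSB library Ighv1-62 lies further below its normal mean than Tyrobp does. Mean CPM of Tyrobp was 155 in model and 169 in QJSB, against 281 in normal.

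Retention in model, taken among the 32 members with a mean of at least 50 counts in normal, was highest for Ighv1-62 (15.1% of normal), Ighv1-74 (7.68%), Ighv5-16 (4.47%), Ighv1-84 (4.12%) and Ighv5-17 (3.92%). Their counts were uneven between mice. Ighv5-16 had 3, 12 and 0 counts in the model libraries, Ighv1-84 had 8, 0 and 0, and Ighv5-17 had 6, 0 and 2. None of the last 3 had more than 2 counts in any QJSB or leucogen library. Another 7 of the 32 had no count in any model library. At the low end, Igkv14-130 with 9 counts in model 1 beside 10, 13 and 5 in normal, and Ighv12-3 with 4, 5 and 0 in model beside 7, 0 and 3 in normal, had 0 counts in every QJSB and leucogen library.

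By position, the heavy members were taken in 3 groups of near equal number along the locus. On the reference, those between 115024026 and 116010093 on chromosome 12, which include 4 of the 5 segments, summed to 38.6% of normal in leucogen, against 4.49% and 0.382% for the other groups. Without the 5 these stood at 2.81%, 0.808% and 0.382% in leucogen, 1.75%, 0.862% and 1.61% in model and 1.49%, 0.490% and 0.623% in QJSB. Kappa members grouped the same way were at 0.466%, 0.814% and 0.634% of normal in leucogen. Counts behind these low percentages were few, and no test was made.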

How the data were processed

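Ribosomal RNA was removed from total RNA of femoral bone marrow and strand-specific libraries were made, 12 in all. Filtering of the reads (Seqtk) and alignment to GRCm38.p4 (HISAT2) were done by the authors. They deposited unnormalized read counts per gene and FPKM. The counting program is not given in the sources used here. The columns headed Blank and Positive were taken for normal and leucogen from the words, and Stilbene for QJSB by elimination, which the labels do not state, and 0 per-sample columns were left unused.

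The members, lists and tests were chosen with earlier results of these data known. CPM used TMM factors over all 12 libraries. The contrasts QJSB against model, leucogen against model and QJSB against leucogen were fitted with edgeR 4.0.16 (TMM, filterByExpr, robust glmQLFit, glmQLFTest) in R 4.3.3 on the libraries compared, with counts as deposited, and checked on simulated counts. Replicates exceeded sampling noise in every pair of libraries. Deviations of same-numbered libraries correlated at 0.482, 0.161 and 0.104 for QJSB and model and at 0.202, 0.173 and 0.127 for QJSB and leucogen, each above 0.1. These values alone do not establish a pairing, and the numbers served as a block in an alternative run only. The labels give no pairing and each library came from a different mouse, so the main fits had no block. Alternatives were DESeq2 1.42.0, limma 3.58.1 (limma-trend) on log2(FPKM + 0.1), other scalings and filters, a replicate block, all libraries in one fit, and each library left out.

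Named genes were the top 5 heavy and kappa members in normal, all lambda members, the top heavy and light member of each cyclophosphamide library, members called or tested in a contrast, the 5 best kept in model, the edges of the rule and 7 marker or constant genes. Other named genes (Ighv1-62-3, Ighv8-4, Ighv1-54, Ighv1-33, Ighv4-1, Ighv9-1, Ighv1-72, Ighv1-59, Ighv1-41, and those compared in sequence or pattern) were chosen after their values were seen. Sequences, transcripts and positions came from GENCODE M21, in which all 177 members were found by gene ID, and identity from a global alignment in Biopython 1.88. RefSeq promoter entries and amino acid sequences were not used.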

Additional observations from a re-analysis of the deposited data

Results flagged for a closer look

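The 4 V segments that passed the filter, through their counts in leucogen, differed between the drug groups. Their shared direction and the separation of libraries given next were largely set by that filter. Their number is no evidence about V segments in general. Set against leucogen, QJSB had log2 fold changes of -3.05 for Ighv1-29, -2.73 for Ighv1-53, -2.85 for Ighv1-62 and -2.13 for Ighv1-74, each past the adjusted cutoff in edgeR's test of that difference, and each with all 3 QJSB libraries below all 3 leucogen libraries in CPM. Since both groups share the model libraries as their control, this contrast is the difference between their effects. Ighv1-62 lost its call with the replicate block (adjusted p = 0.0528), and Ighv1-53, Ighv1-62 and Ighv1-74 lost theirs without some single libraries, with adjusted p up to 0.127, 0.0959 and 0.0701.

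Outside the members, Ighv1-59, an Ighv1 gene below the minimum of 10 counts in normal, had 4, 7 and 4 counts in leucogen (15 in all), above the 3, 3 and 2 in normal in every library. It had 0, 1 and 1 in model and 0 in QJSB. It shares 30 windows of 50 bases with Ighv1-62. The difference was not tested, and at these counts it lies near the limit of detection.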

How the results depend on the processing

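No sign of a called member reversed under any alternative run. Members called in leucogen against model numbered 6 with all 12 libraries in one fit (5 higher and 1 lower of 93 tested) and 6 with limma-trend on log2(FPKM + 0.1) (4 higher and 2 lower of 33), against 3 of 4, and 2 to 4 with single libraries left out. Over all genes, the one fit called 3542 of 15310 and limma-trend 3628 of 15993, against 3275 of 14184. Leaving out single libraries gave 1239 of 14680 (without leucogen 3) to 3953 of 14557 (without model 2). In QJSB against leucogen the members called numbered 1 to 5 with single libraries left out, against 4, being 1 without QJSB 3, leucogen 1 or leucogen 3, 2 without leucogen 2 and 5 without QJSB 2. Over all genes these runs called 1544 of 14773 (without leucogen 3) to 3585 of 14414 (without QJSB 1). QJSB against model gave 0 throughout. Under a minimum of 10 counts per library no member was left to test. In edgeR without a filter on low counts Ighv1-62 lost both calls (adjusted p = 0.106 for leucogen against model and 0.123 for QJSB against leucogen), and in DESeq2 without a filter it had both (0.0127 and 0.0169). Ighv1-74 gained a call in leucogen against model with DESeq2 (adjusted p = 0.0341) and with all libraries in one fit (0.0423). The labels do not pair libraries, and the correlations alone do not establish a pairing of QJSB with model or with leucogen. The replicate block changed no member's call there except that of Ighv1-62 given in the report. Over all genes, it called 18 of 14486 in QJSB against model, against 0 without it. Leucogen and model shared only a number (correlations 0.141, -0.143 and -0.0526), and the block left 2 calls there, with Ighv1-62 at an adjusted p of 0.0984. Scaling by total counts moved the middle log2 fold change over the whole table in leucogen against model from -0.05 to -0.22 and changed no member's call.

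Leaving out Ighv1-62, or all 5 segments, was chosen after seeing the data. The summed CPM became 5.64 and 4.87 in model, 3.96 and 2.87 in QJSB and 9.65 and 3.09 in leucogen, so that without the 5 model was above leucogen. The mean heavy share became 55.2% and 54.1% in normal, 61.5% and 56.3% in model and 89.7% and 67.7% in leucogen. The effective number of heavy members became 11.8 and 10.4 in model and 5.38 and 9.62 in leucogen, and the top heavy member's share 20.9% and 23.7% in model and 33.9% and 16.9% in leucogen. Members with a count numbered 163 in normal without the 5. With no minimum in normal they numbered 207 in normal, the effective number of heavy members in leucogen was 2.08 and its top share 68.2%. Counting only members with at least 3 counts gave 160.7, 12.3, 10 and 9 in normal, model, QJSB and leucogen. With FPKM shares the leucogen values were 1.77 and 74.1%, and the top light share in normal 8.86%. At 48 to 385 V counts per cyclophosphamide library, a segment under 3 counts cannot be told from absence.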

Other observations

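The other V rows, 173 below the minimum in normal, held 81, 80 and 94 counts in the normal libraries, 9, 7 and 2 in model, 4, 4 and 2 in QJSB and 8, 20 and 7 in leucogen, and 101 of them had no count in any of the 12 libraries. The pseudogene Ighv1-41, with 1, 3 and 3 counts in normal, had 0 in model, 3, 1 and 2 in QJSB and 2, 6 and 2 in leucogen.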
